A study of Mus musculus with 2 samples.

Results

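The genes of the machinery that releases synaptic vesicles were described in hippocampal cells of aged mice given tomatidine or control chow. Members were the genes whose symbols belong to 11 families: synaptotagmins, synapsins, SV2 proteins, VAMPs, syntaxins, syntaxin-binding proteins, SNAP proteins, complexins, Rab3 proteins, RIMs and Unc13 proteins. The rule found 72 of the 19059 genes in the files: 17 synaptotagmins, 3 synapsins, 3 SV2 genes, 8 VAMPs, 15 syntaxins, 5 syntaxin-binding proteins, 5 SNAP genes and 4 each of the complexin, Rab3, RIM and Unc13 genes. A neurotransmitter vesicle fuses when VAMP2 on the vesicle zips together with a syntaxin and SNAP-25 on the plasma membrane, forming the SNARE complex. Munc13 (Unc13) and RIM proteins bring vesicles to a primed state, complexins hold or assist the primed complex, and a synaptotagmin senses the calcium that triggers fusion. Many other members of the same families move membranes inside every cell, so the rule brings together neuronal release genes and housekeeping trafficking genes. It also takes in Snap91, a clathrin assembly protein that is no SNARE.

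The study pooled hippocampi of 4 C57BL/6 mice per group into 1 library. Control mice received standard chow, and treated mice received chow with 0.05% tomatidine, a steroidal alkaloid of tomato, for 3 months from an age of 21 months. Cells came from flash-frozen tissue and were fixed, and probes on each transcript were counted as unique molecular identifiers (UMIs). With 1 pooled library per group there was no replicate spread and no test, and a difference between the mice or the dissections of the 2 pools cannot be told apart from a difference due to diet.

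Of 31097 deposited cells, 29617 were kept, and marker genes that are not members placed them into classes, named here as "like" the type whose markers led. All neuron-like cells numbered 6410 in control and 6212 in tomatidine (median 16256 and 15719 UMIs per cell), and all glia-like cells 5225 and 4607 (median 4748 and 4412). Cells were placed by the same markers, so the leading genes of a class are no independent check of its name. Each named class had at least 3 of its own markers and no marker of another class among its 10 leading genes. The other excitatory cells had none of their own there, so they and the other interneurons, led by Gata3, are remainders and not cell types. Among all deposited cells, 292 barcodes occurred in both libraries. Thyroid hormone carrier Ttr, made by choroid plexus cells, was lower in the tomatidine library in all 14 classes compared, with log2 ratios from −4.56 in Pvalb-like to −1.88 in Sst-like cells, beside 229 choroid plexus-like cells in control and 19 in tomatidine. Levels are UMIs of a gene relative to all UMIs of the class, on the CPM scale, with the control value first and the tomatidine value second. Probe counts are not scaled to the length of a gene or the number of its probes, so a gene was compared across cells and libraries and not with other genes.

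The core fusion genes were high in every neuron class. Snap25 (chromosome 2, 136713453 to 136782428 in mm10), which encodes the plasma-membrane SNARE SNAP-25, was at 2806 and 2905 CPM over all neuron-like cells. It was lowest in granule-like cells, at 1780.1 and 1693 CPM, and reached 4375 and 4152 CPM in CA3-like cells. Syt1, the fast calcium sensor of most forebrain synapses, was likewise lowest in granule-like cells (899.7 and 875 CPM), with the thalamic-like cells of the tomatidine library close to them (883 CPM). Its highest values were in CGE-like interneurons, at 2639.6 and 2472 CPM. Vamp2, the vesicle SNARE, varied less, from 761 to 1452 CPM over the 10 neuron classes of both libraries. Granule-like cells were thus the lowest neuron class for Snap25, Syt1 and Vamp2 in both libraries.

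Stx1a, a plasma-membrane syntaxin, set the neuron classes further apart. It was at 420.1 and 422 CPM in deep-layer-like cells and 197 and 217 CPM in CA3-like cells, against 50.01 and 51.5 CPM in granule-like and 37.0 and 33.5 CPM in Pvalb-like cells. The order of these classes was the same in both libraries.

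**Figure D1:**
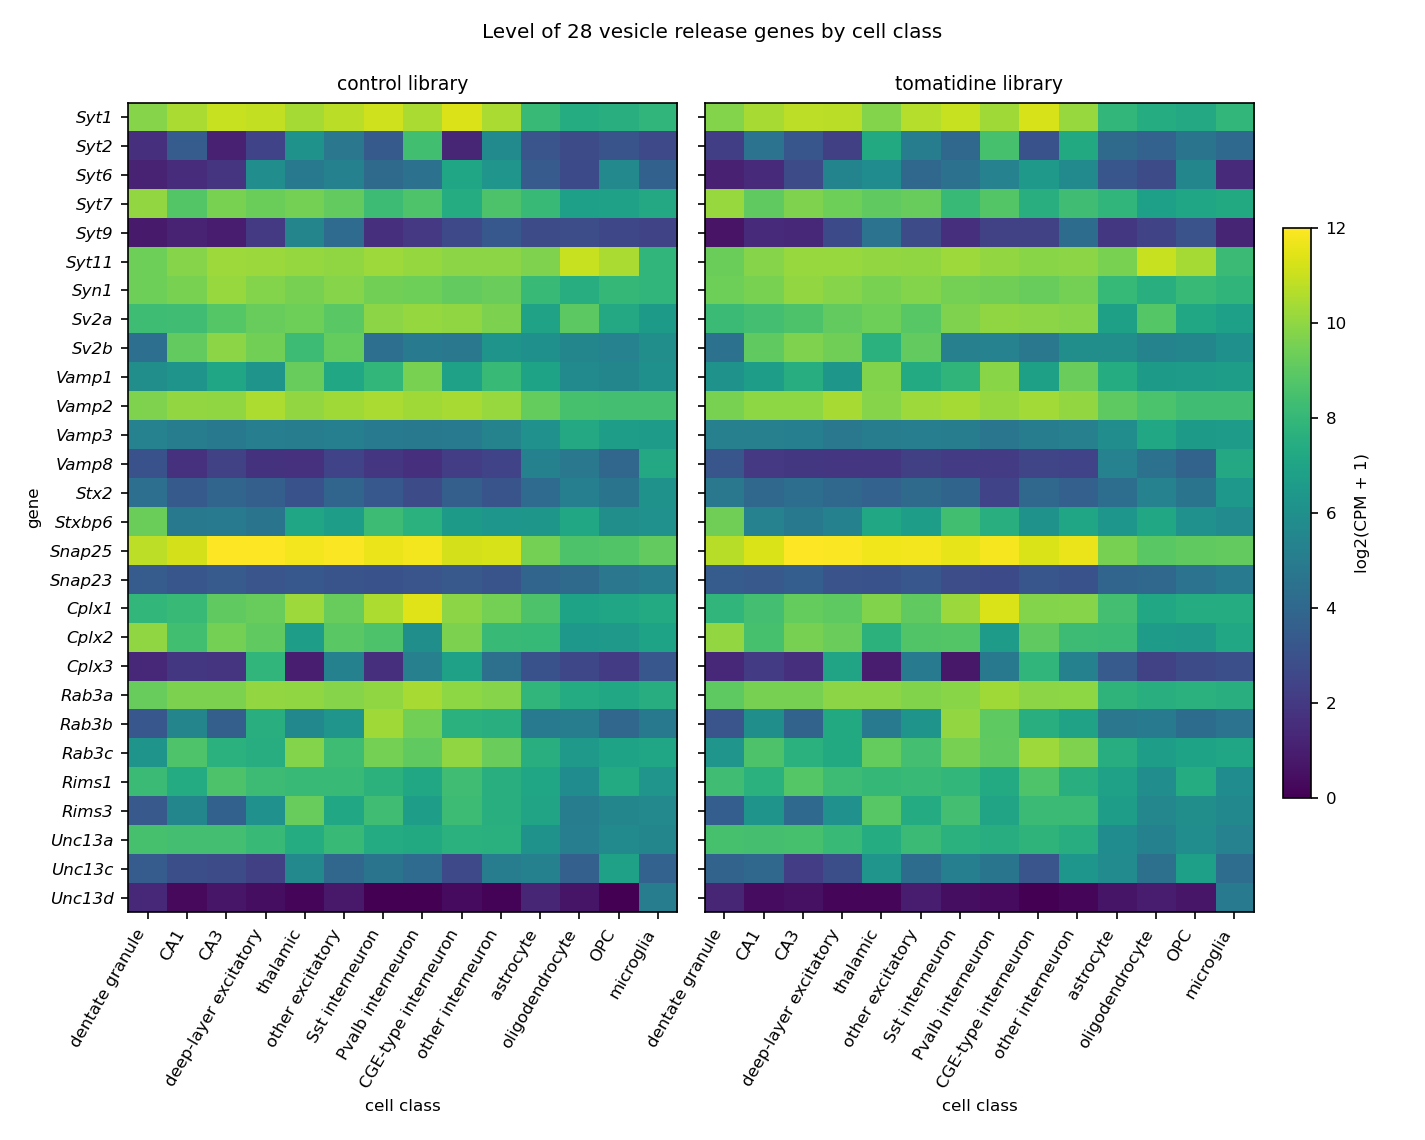
Level of 28 members, as log2(CPM + 1), in the 14 classes (columns) of the control library (left) and the tomatidine library (right). Rows are to be read along a gene; Rab3b is brightest in Sst-like, Cplx1 in Pvalb-like and Syt11 in oligodendrocyte-like cells, in both panels.

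Synaptotagmins differed between the neuron types. Syt2, the fast sensor of many hindbrain and Pvalb synapses, was at 325 and 368 CPM in Pvalb-like cells, 12.6-fold and 6.72-fold its level over all neuron-like cells. Of the other named types, thalamic-like cells followed at 67.7 and 157 CPM, and granule-like cells held 2.16 and 3.60 CPM. Syt9 was highest in thalamic-like cells (43.3 and 22.9 CPM) and Syt6 in CGE-like cells (131 and 86.8 CPM). Syt7, a high-affinity sensor tied to facilitation and delayed release, was highest in granule-like cells at 1054 and 1132 CPM and lowest in CGE-like cells at 170.3 and 188 CPM. Syt17 was also highest in granule-like cells, at 177 and 208 CPM, and was at 4.13 and 9.15 CPM in deep-layer-like cells. Syt10 was at 73.5 and 76.6 CPM in granule-like cells and at 3.20 and 4.40 CPM in Pvalb-like cells, but its highest level was outside neurons, in ependymal-like cells, at 422 and 348 CPM from 23 and 13 cells.

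The complexins, small proteins that bind the assembled SNARE complex, showed an exchange between types. Cplx1 was at 2762 and 2528 CPM in Pvalb-like cells and 246 and 236 CPM in granule-like cells, and Cplx2 went the other way, at 62.8 and 98.7 CPM and 1017 and 1065 CPM. A share of the UMIs of a pair depends on the probes of both genes, so it too is compared across cells. Of the UMIs of both genes, Cplx1 held 97.8% (97.5 to 98.0) and 96.2% (95.8 to 96.6) in Pvalb-like cells, 92.0% (91.6 to 92.5) and 80.5% (79.9 to 81.1) in thalamic-like cells and 19.5% (19.1 to 19.8) and 18.1% (17.8 to 18.5) in granule-like cells, with exact binomial 95% intervals that cover counting error only. CA1-like and CA3-like cells lay between, at 45.4% and 48.6% and 42.7% and 43.6%. Over all neuron-like cells Cplx1 was at 569 and 580.0 CPM and Cplx2 at 583 and 553 CPM. Cplx3, known from retinal ribbon synapses, was highest in deep-layer-like cells in control (241 CPM) and in CGE-like cells in tomatidine (239.6 CPM). Cplx4 had 13 UMIs in all neuron-like cells together.

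**Figure D2:**
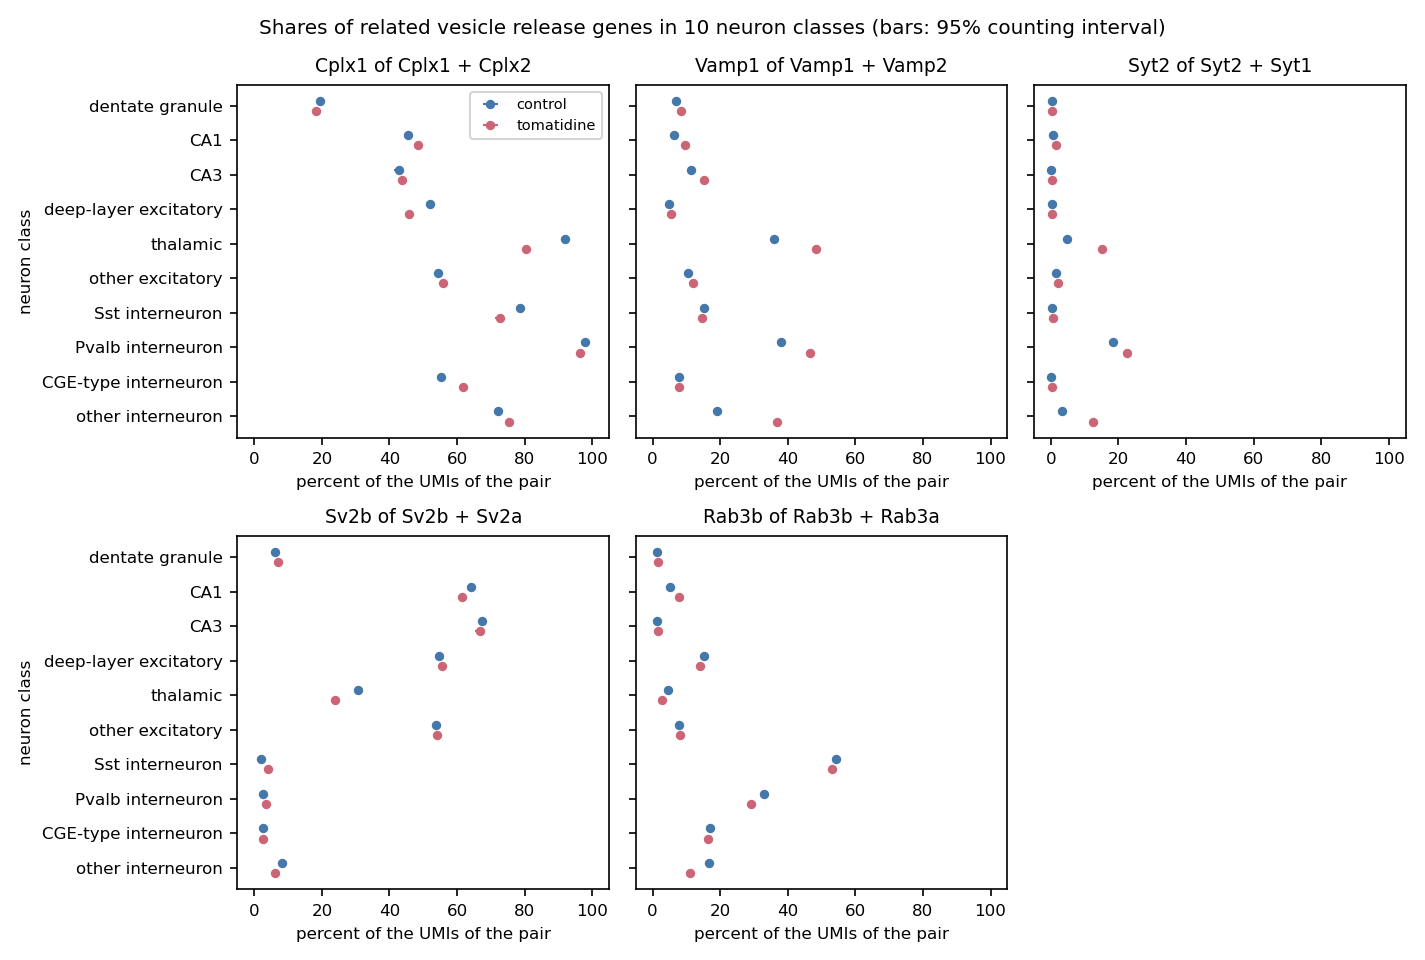
Share of the first gene in the UMIs of 5 pairs of related members, in percent, for 10 neuron classes (rows); blue points are the control library, red points the tomatidine library, bars are exact 95% counting intervals. Cplx1 spans from 18.1% in granule-like to 97.8% in Pvalb-like cells, and Vamp1 is further right in tomatidine in thalamic-like cells and other interneurons.

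Vamp1, the vesicle SNARE that stands beside or in place of Vamp2 in fast-firing neurons, lies on chromosome 6 (125215551 to 125245964). It was at 773 and 946 CPM in Pvalb-like and 601 and 841 CPM in thalamic-like cells, and at 60.2 and 69.0 CPM in granule-like cells. Of Vamp1 and Vamp2 UMIs, Vamp1 held 38.0% and 46.5% in Pvalb-like cells and 6.94% and 8.31% in granule-like cells. Pvalb-like and thalamic-like cells were the highest 2 named neuron types for both Vamp1 and Syt2 in each library.

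Vesicle proteins showed a split between excitatory and inhibitory cells. Sv2a, the ubiquitous SV2 glycoprotein, was at 1094 and 1041 CPM in Pvalb-like and 308 and 291 CPM in granule-like cells. Sv2b was at 948 and 809.8 CPM in CA3-like, 702 and 681 CPM in deep-layer-like and 560.4 and 545 CPM in CA1-like cells, but at 19.8 and 21.9 CPM in granule-like and 19.99 and 36.2 CPM in Sst-like cells. Granule-like cells, although excitatory, therefore lay with the 3 named interneuron types, with Sv2b at 6.03% and 6.999% of the pair against 67.4% and 66.7% in CA3-like cells. Sv2c was at 96.8 and 154 CPM in CGE-like cells and 97.1 and 99.04 CPM in granule-like cells, and at 4.75 and 6.50 CPM in CA3-like cells. Synapsins tether vesicles into the reserve pool. Syn1 (chromosome X, 20860511 to 20921004) ranged from 558 to 1122 CPM over the neuron classes, Syn2 was highest in CA3-like cells (1267 and 1211 CPM), and Syn3 was highest in granule-like cells (93.7 and 108 CPM) in both libraries.

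Of the Rab3 proteins, the vesicle GTPases that bind RIM, Rab3a was present in every neuron class, from 525 to 1398 CPM. Rab3b was at 1240.0 and 1048 CPM in Sst-like cells and 686 and 517 CPM in Pvalb-like cells, and at 8.57 and 7.87 CPM in granule-like cells. Rab3b held 54.4% and 53.1% of the Rab3a and Rab3b UMIs in Sst-like cells and 1.43% and 1.48% in granule-like cells. Rab3c was highest in CGE-like cells, at 1045 and 1206 CPM, and Rab3d did not exceed 17.5 CPM in any neuron class.

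RIM proteins organise the active zone, the site on the membrane where vesicles dock. Rims1 was highest in CA3-like cells (406 and 461 CPM), Rims3 in thalamic-like cells (601 and 473 CPM, against 9.27 and 10.9 CPM in granule-like cells) and Rims4 in Pvalb-like cells (293 and 269 CPM). The priming factor Unc13a (Munc13-1, chromosome 8, 71624417 to 71671757) ranged from 155 to 368 CPM over the neuron classes. It held 95.2% and 94.5% of the Unc13a and Unc13b UMIs in Pvalb-like cells and 84.6% and 83.7% in deep-layer-like cells. Unc13c (Munc13-3, chromosome 9, 73479422 to 73968966) was at 48.7 and 75.0 CPM in thalamic-like cells and 10.1 and 13.2 CPM in granule-like cells. Stxbp6 (amisyn), which can bind SNARE proteins in place of VAMP, was highest in granule-like cells at 640.0 and 679 CPM and at 27.7 and 39.2 CPM in CA1-like cells.

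Over the 68 members with at least 100 UMIs in all neuron-like cells, 49 were highest in the same neuron class in both libraries, 15 of them in granule-like cells. In 10 members the highest class was at least 3-fold the level over all neuron-like cells in both libraries: Syt2, Syt6, Syt9, Syt15, Vamp1, Cplx1, Cplx3, Rab3b, Rab3c and Rims3. For Syt15 and Cplx3 this was not the same class in both libraries. Syt15 was highest in thalamic-like cells in control and in other excitatory cells in tomatidine. It was near the floor, at 0.959 and 0.0659 CPM over all neuron-like cells. With the lead of the first class over the next lowered from 2-fold to 1.5-fold, 8 of the 10 remained and Rims3 and Rab3c did not. The 4 members under 100 UMIs in neuron-like cells were Syt8, Stx11, Stx19 and Cplx4. Stx19 was the sole member under 20 UMIs in all, and no member was at 0. Of the trafficking syntaxins of the Golgi and the endoplasmic reticulum, Stx16 ranged from 111 to 167 CPM and Stx5a from 60.5 to 80.4 CPM over the neuron classes.

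The remaining synaptotagmins also differed between neuron types. Syt5 was at 565 and 567 CPM in deep-layer-like and 80.1 and 58.3 CPM in Pvalb-like cells, and Syt16 at 165 and 161 CPM and 29.6 and 29.1 CPM. Syt12 was highest among neurons in CA3-like cells (96.9 and 98.8 CPM) and Syt14 in CA1-like cells (58.0 and 64.9 CPM). Syt13 was highest in granule-like cells (540.2 and 528 CPM), and Syt4, which sits on dense-core and other vesicles, in the other interneurons (249 and 262 CPM). Syt3 ranged from 101 to 215 CPM. Granule-like cells also had the highest level of Stxbp5 (tomosyn), an inhibitor of SNARE assembly, at 199 and 197 CPM, and of the plasma-membrane syntaxin Stx3, at 24.6 and 30.2 CPM. Stx6 of the trans-Golgi was at 194 and 200.4 CPM in them and 65.5 and 60.7 CPM in Pvalb-like cells. Rims2 was highest in thalamic-like cells (318 and 204 CPM) and Unc13b in deep-layer-like cells (48.8 and 53.1 CPM). Snap91 ranged from 347 to 717, Snap47 from 324 to 587, Stx12 from 149 to 253, Stx7 from 124 to 277, Vamp4 from 75.0 to 129 and Vamp7 from 32.6 to 69.2 CPM. Stx12, Stx7, Vamp4 and Vamp7 serve endosomes, lysosomes and the Golgi.

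Promoter sequence is shown for Syn1 and Unc13a because their windows alone, of the 55 members that have one, hold the letters TCAGCACC that open the RE1 element, at which the repressor REST silences neuronal genes outside neurons. RefSeq windows of 250 bases before to 50 after a gene's start (GRCm38.p6) were searched on both strands. Of members, 3.64% held TCAGCACC, against 1.94% of 14935 genes in the files with a window, and 1.82% against 0.516% also held GGACAG, the core of its other arm. The 250 bases before the Syn1 start are chrX:20920919-20921168, minus strand, with TCAGCACC and the cAMP response element TGACGTCA in capitals, and the 30 bases of the Unc13a window are chr8:71671724-71671753, minus strand, with the complements of GGACAG and TCAGCACC in capitals.
Syn1: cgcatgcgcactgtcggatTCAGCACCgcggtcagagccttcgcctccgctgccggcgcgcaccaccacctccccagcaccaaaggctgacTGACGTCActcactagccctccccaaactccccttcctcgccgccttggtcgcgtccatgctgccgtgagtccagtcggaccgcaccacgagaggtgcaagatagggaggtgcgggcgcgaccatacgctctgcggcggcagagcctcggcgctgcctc
Unc13a: ggcgCTGTCCgcgcccccGGTGCTGAagcg
In Syn1 TCAGCACC begins 231 bases before the start, and TGACGTCA, which 1.82% of members and 2.67% of all windows hold, begins 159 bases before it. In Unc13a both arms lie within the first 50 bases after the start. The GC box GGGCGG was in 78.2% of member windows and 53.6% of all, and TATAAA in 7.27% and 13.8%. The median GC content was 62.3% for members and 57.7% for all windows. A match describes the letters alone. Over all glia-like cells Syn1 was at 27.1% and 29.0% and Unc13a at 15.0% and 15.5% of their neuron level.

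Glia held UMIs of nearly every neuronal release gene, and these levels were set beside those of pan-neuronal markers. The 7 pan-neuronal markers, which were not used to place cells, were at 15.2 to 29.8% of their neuron level in all glia-like cells in control and 17.1 to 33.4% in tomatidine. None of the 7 was at 0 in any glia class. Whether glia express a member that lies at or below this range was not tested. Snap25 was at 17.1% and 19.8%, Syt1 at 14.3% and 15.2%, Rab3a at 22.0% and 24.98% and Unc13a at 15.0% and 15.5%, all within or below the markers. Of 66 members with at least 100 UMIs in glia, 39 in control and 38 in tomatidine exceeded the highest pan-neuronal marker over all glia-like cells, and 15 and 14 exceeded the neuron level itself. Within single glia classes some markers lay above the pooled range. Elavl4 was at 92.2% and 82.5% of its neuron level in OPC-like cells, and Gap43 at 57.3% and 49.5% in astrocyte-like cells. Whether glia express these markers was not tested.

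The members with the highest ratio of glia to neurons were Vamp5, Vamp8, Unc13d, Vamp3, Stx2, Stx4a, Snap23, Syt11, Stx17 and Snap29. Several are the SNAREs that other cells use where neurons use Vamp2 and SNAP-25. Vamp3 (cellubrevin) was at 148 and 147 CPM in oligodendrocyte-like and 35.3 and 34.5 CPM in all neuron-like cells, and Snap23, the broadly expressed relative of Snap25, at 31.8 and 29.3 CPM in microglia-like and 8.80 and 8.66 CPM in neuron-like cells. Vamp8 (endobrevin) was at 149.9 and 149.7 CPM in microglia-like cells and 4.46 and 4.65 CPM in neuron-like cells. Unc13d (Munc13-4), which primes granules of blood cells, was at 32.9 and 30.2 CPM in microglia-like cells, at most 1.47 CPM in the other 3 glia classes and 0.759 and 0.68 CPM in neuron-like cells. Stx2 was also highest in microglia-like cells among glia (71.8 and 83.0 CPM), while Stx4a was at 127 and 148 CPM in oligodendrocyte-like and 55.6 and 60.1 CPM in neuron-like cells. Stx17, which acts in autophagosome fusion, was at 59.9 and 60.5 CPM in oligodendrocyte-like and 27.1 and 33.2 CPM in neuron-like cells, and Snap29, its partner, at 36.9 and 31.8 CPM and 21.9 and 20.6 CPM. Vamp5 was low, at 18.1 and 18.6 CPM in glia-like and 0.642 and 1.05 CPM in neuron-like cells, and was at 86.7 and 61.0 CPM in endothelial-like and 86.4 and 95.8 CPM in meningeal fibroblast-like cells.

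A pair of neuronal family members was high in oligodendrocyte-like cells. Syt11, a synaptotagmin that does not bind calcium (chromosome 3, 88744700 to 88775164), was at 2049.6 and 2030.0 CPM there, at 1402 and 1348 CPM in OPC-like cells (oligodendrocyte precursors) and at 235 and 293 CPM in microglia-like cells, against 908 and 919.8 CPM in neuron-like cells. Sv2a was at 498 and 456 CPM in oligodendrocyte-like cells, 103% and 90.4% of the neuron level, but at 24.4% and 22.1% in astrocyte-like and 19.2% and 21.8% in microglia-like cells. With each cell thinned to 1500 UMIs, 92.7% and 92.5% of oligodendrocyte-like cells had a Syt11 UMI, against 63.4% and 61.6% of granule-like and 27.2% and 29.8% of microglia-like cells. For Sv2a these shares were 50.1% and 47.5%, 37.3% and 36.1% and 12.2% and 14.7%. Thinning left out 97 and 93 oligodendrocyte-like and 94 and 102 microglia-like cells below that depth. Without thinning, Syt11 was found in 97.3% and 97.4% of oligodendrocyte-like and 99.2% and 98.9% of granule-like cells, whose median depths were 5255 and 4824 against 14672.5 and 13321.5 UMIs. For comparison Snap25, a gene of neurons, had a UMI in 42.0% and 45.2% of thinned oligodendrocyte-like cells and 86.9% and 86.1% of granule-like cells.

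OPC-like cells stood out for Unc13c, at 115 and 110.0 CPM against 15.0 and 27.4 CPM in neuron-like cells, and Syt6 was there at 209% and 212% of its neuron level. Astrocyte-like cells held the highest glial levels of Cplx1 (395 and 338 CPM), Vamp2 (566 and 521 CPM) and Vamp1 (124 and 172 CPM), and they also had the highest median of the pan-neuronal markers, 31.7% and 30.3% of the neuron level, against 18.9% and 21.8% in oligodendrocyte-like cells. The part of neuronal RNA in these astrocyte values was not tested. Beyond glia, Stxbp4 was at 145 and 125 CPM in ependymal-like and 135 and 141 CPM in choroid plexus-like cells, against 19.9 and 19.8 CPM in neuron-like cells, and Syt12 was at 178 and 191 CPM in meningeal fibroblast-like cells against 45.0 and 49.0 CPM.

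**Figure D3:**
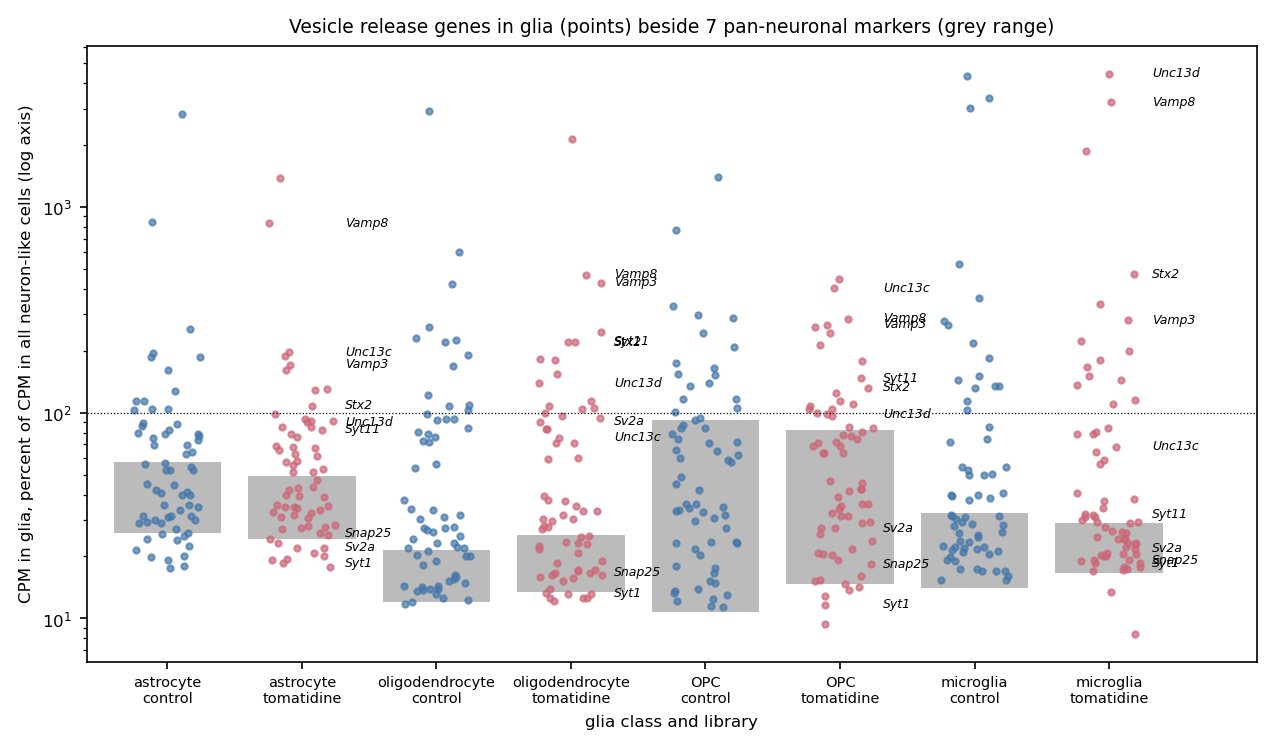
CPM of 66 members (points) in each glia class and library as a percentage of their CPM in all neuron-like cells, on a log axis, with the range of 7 pan-neuronal markers in grey and a dotted line at 100%. Snap25 and Syt1 lie in or below the grey range in each class, while Vamp8, Vamp3 and, in microglia-like cells, Unc13d lie above the line; values of 0 are not drawn.

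The comparison of tomatidine with control asks whether the release machinery differs with the diet in any cell class. Called higher or lower means a log2 CPM ratio past 0.32 in that direction with a 95% exact binomial interval of the ratio that excludes no difference, for genes with at least 100 UMIs over both libraries in the class. The calls with the largest ratios, up to 5 in each direction and class, and those of members called in both directions were recomputed with all deposited cells, with cells of at most 6000 genes and under 10% mitochondrial UMIs (the strict cell filter, after the second one the study states, which kept 56.6% and 56.8% of neuron-like cells), without removal of doublets, with a looser and a stricter class gate, with edgeR's TMM factors and as a mean over cells. A call that held under all of them is said to hold throughout. The summed level of all members hardly differed. Over all neuron-like cells it was 18379 and 18732 CPM, a log2 ratio of 0.027 (0.025 to 0.03), and over all glia-like cells 7053 and 7329 CPM, a log2 ratio of 0.056 (0.047 to 0.064). Among the 14 classes the ratio lay between −0.066 (−0.081 to −0.052) in Sst-like cells and 0.18 (0.17 to 0.19) in the other interneurons, which was the largest.

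Over all neuron-like cells, 6 of 68 measured members were higher and 3 lower in the tomatidine library, beside 8.69% and 2.69% of all genes measured there. The medians were 0.029 for members and 0.042 for all genes. The 6 higher members were Syt2, Unc13c, Vamp5, Vamp1, Stx2 and Rims3, and the 3 lower were Syt15, Vamp9 and Syt9. Syt2 went from 25.7 to 54.8 CPM (3726 UMIs in control and 7490 in tomatidine), a log2 ratio of 1.09 (counting interval 1.03 to 1.15). Unc13c went from 15.0 to 27.4 CPM (2174 UMIs in control and 3738 in tomatidine), a log2 ratio of 0.87 (counting interval 0.79 to 0.94), and Vamp1 from 165 to 261 CPM (23929 UMIs in control and 35697 in tomatidine), a log2 ratio of 0.66 (counting interval 0.64 to 0.69). The core genes stayed within 0.32 there. Snap25 had a log2 ratio of 0.05 (counting interval 0.043 to 0.056), Syt1 −0.11 (counting interval −0.12 to −0.10), Vamp2 −0.075 (counting interval −0.086 to −0.065), Syn1 0.023 (counting interval 0.011 to 0.035), Rab3a −0.048 (counting interval −0.06 to −0.036) and Unc13a −0.011 (counting interval −0.031 to 0.0084). Of the 8 with the largest ratios, Rims3 left aside, Syt2, Unc13c, Vamp1, Stx2 and Syt9 held throughout. Over all glia-like cells, 8 of 66 measured members were higher and 1 lower in the tomatidine library, beside 10.6% and 2.31% of all genes measured there. Syt2, Vamp1, Unc13c, Syt12 and Rims4 had the largest ratios among the 8, at 1.254, 0.79, 0.66, 0.49 and 0.45, and Syt9 was lower at −0.59. With the glia classes weighted as in control, a setting added after the data were seen, 3 members were called higher in place of 8.

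Among the excitatory types of the hippocampus, members were called about as often as other genes or somewhat more. In granule-like cells, 5 of 63 measured members were higher and 0 lower in the tomatidine library, beside 3.96% and 0.606% of all genes measured there. The 5 were Syt2, Stx2, Stxbp2, Unc13c and Stx17, of which Stxbp2 (Munc18-2), a partner of non-neuronal syntaxins, went from 46.1 to 60.1 CPM, a log2 ratio of 0.38 (counting interval 0.29 to 0.47). The others were Syt2, Stx2, Unc13c and Stx17 at 0.74, 0.44, 0.38 and 0.37, and all 5 but Unc13c held throughout. In CA3-like cells, 5 of 56 measured members were higher and 0 lower in the tomatidine library, beside 6.96% and 1.89% of all genes measured there, with Stxbp2, Syt17, Stx4a, Vamp1 and Syt14 at 0.53, 0.52, 0.51, 0.42 and 0.35, none of which held throughout. In CA1-like cells, 13 of 62 measured members were higher and 1 lower in the tomatidine library, beside 13.9% and 2.01% of all genes measured there. The largest differences in CA1-like cells were in Unc13c, which went from 6.29 to 15.3 CPM, a log2 ratio of 1.28 (counting interval 1.001 to 1.56), and Syt2, from 10.3 to 22.5 CPM, a log2 ratio of 1.12 (counting interval 0.90 to 1.35). Rims3, Stxbp2 and Stx2 followed at 0.71, 0.69 and 0.69, and Snap29 was lower, from 24.1 to 19.2 CPM, a log2 ratio of −0.33 (counting interval −0.51 to −0.15). Unc13c, Stxbp2 and Stx2 held throughout, while under the strict cell filter Syt2 was at −0.54 and Snap29 at 0.25, both with the direction turned, and Rims3 at 0.31. Under that filter 7 members were higher in CA1-like cells in place of 13. The 7 thalamic markers, which these cells should lack, went from 117 to 179 CPM in CA1-like cells (log2 ratio 0.62, with 6 of 7 above 0 and none absent), and their part in the CA1 values was not tested.

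**Figure D4:**
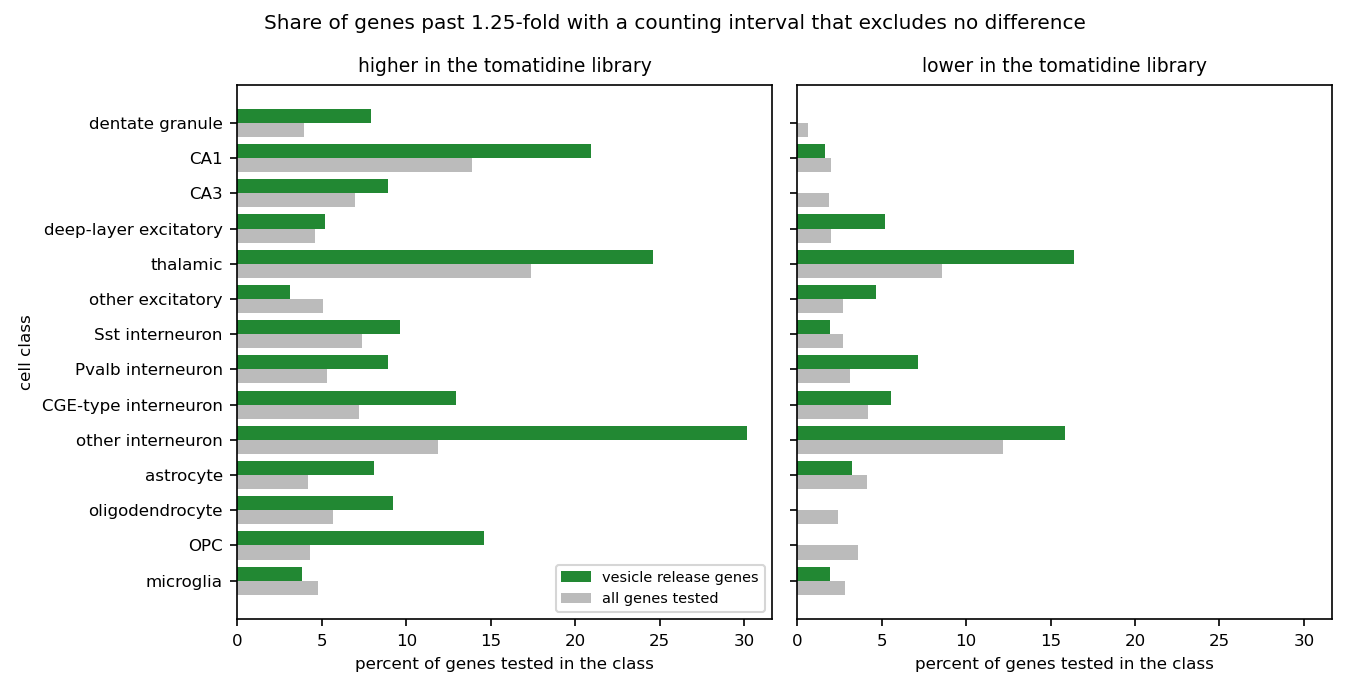
Percentage of the measured members (green) and of all measured genes (grey) called higher (left) or lower (right) in the tomatidine library, for each of 14 classes. The other interneurons show the widest gap, with 30.2% of members higher beside 11.9% of all genes.

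The thalamic-like cells and the other interneurons held the most calls. The first carry markers of the neighbouring thalamus, which the tissue label does not name. In thalamic-like cells, 15 of 61 measured members were higher and 10 lower in the tomatidine library, beside 17.4% and 8.58% of all genes measured there. Sv2c went from 12.4 to 45.0 CPM, a log2 ratio of 1.86 (counting interval 1.60 to 2.13), Syt2 from 67.7 to 157 CPM, a log2 ratio of 1.22 (counting interval 1.099 to 1.34), and Cplx2 from 103 to 208 CPM, a log2 ratio of 1.01 (counting interval 0.92 to 1.11). Syn3 and Syt6 were also higher, at 1.12 and 1.003. Lower were Syt9, from 43.3 to 22.9 CPM, a log2 ratio of −0.92 (counting interval −1.12 to −0.71), and Rab3c, from 882 to 567 CPM, a log2 ratio of −0.64 (counting interval −0.68 to −0.60), with Rab3b, Syt17 and Rims2 at −0.75, −0.68 and −0.64. Of these 10, Syt2, Syn3, Syt6, Rims2 and Rab3c held throughout, and under the strict cell filter Cplx2 was at 0.081. In all, 8 members were higher under that filter in place of 15. Syt1 itself was lower in these cells, from 1328 to 883 CPM, a log2 ratio of −0.59 (counting interval −0.62 to −0.55), while Vamp1 was higher, from 601 to 841 CPM, a log2 ratio of 0.48 (counting interval 0.44 to 0.53).

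The makeup of the thalamic-like class moved with these values. Prkcd, a marker of first-order thalamic neurons, went from 1535 to 507 CPM, and the summed thalamic markers from 5083 to 3382 CPM, with 1 of 7 above 0. Cells with at least 3 Prkcd UMIs were 53.0% of the class in control and 26.8% in tomatidine, a split chosen after seeing the data. Among them Syt2 was at 21.5 and 15.6 CPM, Vamp1 at 531 and 424 CPM and Cplx2 at 49.6 and 49.8 CPM. Among the remaining cells Syt2 was at 147 and 216 CPM, Vamp1 at 721 and 1012 CPM and Cplx2 at 195 and 273 CPM. Within the Prkcd cells Syt2 and Vamp1 were thus lower, not higher, in the tomatidine library and Cplx2 nearly equal, and the higher values lay in the cells with fewer than 3 Prkcd UMIs. The part of the makeup of the class in these differences was not tested.

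In the other interneurons, 19 of 63 measured members were higher and 10 lower in the tomatidine library, beside 11.9% and 12.2% of all genes measured there. Syt2 went from 50.3 to 158 CPM, a log2 ratio of 1.65 (counting interval 1.51 to 1.79), Vamp1 from 269 to 612 CPM, a log2 ratio of 1.19 (counting interval 1.12 to 1.2498), and Unc13c from 33.5 to 79.1 CPM, a log2 ratio of 1.24 (counting interval 1.06 to 1.42). The core gene Snap25 was higher in this class too, from 2483 to 3254 CPM, a log2 ratio of 0.39 (counting interval 0.37 to 0.41). Lower were Sv2c, from 116 to 46.9 CPM, a log2 ratio of −1.30 (counting interval −1.44 to −1.16), and Syt5, from 303 to 135 CPM, a log2 ratio of −1.17 (counting interval −1.253 to −1.08). The other named members were Syt9 and Syt17 at 1.04 and 0.98 and Stxbp2, Syt14 and Rab3b at −0.79, −0.61 and −0.58. Of the 10 with the largest ratios, Syt2, Unc13c, Vamp1, Sv2c, Syt5, Stxbp2 and Rab3b held throughout. Gata3 and Sox14, transcription factors of midbrain and thalamic inhibitory neurons that lead this class, went from 58.4 to 143 CPM and from 37.8 to 94.4 CPM. The 6 summed excitatory markers went from 914 to 508 CPM, with 3 of 6 above 0, and Prkcd from 302 to 34.9 CPM, and their part in these differences was not tested. Cells with at least 3 Gata3 UMIs were 16.3% of the class in control and 43.7% in tomatidine. Syt2 was at 75.8 and 193 CPM in those cells and 41.4 and 97.8 CPM in the rest, and Vamp1 at 517 and 720.2 CPM and 182 and 424 CPM. Both genes were higher in the tomatidine library on either side of the split, which was chosen after seeing the data. Each side can still mix cell types, and whether its cells were alike in both libraries was not tested.

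The named interneuron types held fewer calls. In Sst-like cells, 5 of 52 measured members were higher and 1 lower in the tomatidine library, beside 7.35% and 2.68% of all genes measured there. Sv2b and Stxbp2 were higher there, at log2 ratios of 0.86 (counting interval 0.41 to 1.31) and 0.73 (counting interval 0.27 to 1.19), and Cplx1 was lower, from 1468 to 1174 CPM, a log2 ratio of −0.32 (counting interval −0.39 to −0.26). Unc13c, Syn3 and Stx5a at 0.61, 0.44 and 0.32 completed the list, and none of the 6 held throughout. In Pvalb-like cells, 5 of 56 measured members were higher and 4 lower in the tomatidine library, beside 5.31% and 3.12% of all genes measured there. Syn3 and Syt6 were higher at 0.84 and 0.80, and Syt5 and Rab3b lower at −0.46 and −0.41. The others were Cplx2, Unc13c and Sv2b at 0.65, 0.50 and 0.41 and Cplx3 and Stx5a at −0.39 and −0.33. None of the 9 held throughout, and Syt6, Cplx2, Sv2b and Cplx3 turned direction under the strict cell filter, to −0.69, −0.081, −0.33 and 1.57. Vamp1 was at 773 and 946 CPM in Pvalb-like cells, a log2 ratio of 0.29 (counting interval 0.22 to 0.36). In CGE-like cells, 7 of 54 measured members were higher and 3 lower in the tomatidine library, beside 7.19% and 4.19% of all genes measured there. Cplx3 and Sv2c led the higher members, at 1.05 and 0.67, and both held throughout. Sv2c was at 251 and 247 CPM in the CGE-like cells with at least 3 UMIs of Lamp5, a neurogliaform marker, and at 0.957 and 4.49 CPM in the rest. The Lamp5 cells were 34.5% of the class in control and 53.7% in tomatidine, a split chosen after seeing the data. The part of this share in the higher Sv2c of the class was not tested. Syt17, Stx17 and Stxbp2 at 0.47, 0.47 and 0.45 followed, and Syt6, Cplx2 and Stxbp6 were lower, at −0.60, −0.57 and −0.40. Under the strict cell filter 2 members were higher in CGE-like cells in place of 7, and in Sst-like cells 2 were higher and 8 lower in place of 5 and 1. With the stricter gate none was lower in Pvalb-like cells in place of 4. Of the lower CGE-like members Syt6 turned to 0.58 under the strict cell filter, and with all deposited cells Stxbp6 turned to 0.14 and Cplx2 was at −0.10. The tomatidine cells of these 3 types were shallower, with medians of 18402 to 19335.5 UMIs against 24395 to 25092.5 in control. Gata3 had 1 and 54 UMIs in Sst-like, 58 and 158 in Pvalb-like and 0 and 19 in CGE-like cells. The thalamic marker Tcf7l2 had log2 ratios of 2.04, 1.81 and −1.04 in the same order. The 7 summed thalamic markers had 0.57, 0.51 and −0.55, with 5, 4 and 1 of 7 above 0. The part of the makeup of these classes in their member values was not tested.

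Cplx3 (chromosome 9, 57599992 to 57606281) differed in opposite directions. In deep-layer-like cells, where 3 of 58 measured members were higher and 3 lower in the tomatidine library, beside 4.6% and 2.0% of all genes measured there, Cplx3 went from 241 to 129 CPM (2044 UMIs in control and 862 in tomatidine), a log2 ratio of −0.90 (counting interval −1.02 to −0.79). In CGE-like cells it went from 116 to 239.6 CPM (392 UMIs in control and 834 in tomatidine), a log2 ratio of 1.05 (counting interval 0.88 to 1.23). The CGE value held throughout. The deep-layer value did not, at −0.24 with all deposited cells, −0.30 with the stricter gate and 0.69 under the strict cell filter, which kept 66 and 67 of the deep-layer-like cells. Within each class it sat in a subset. In deep-layer-like cells it was at 716 and 366 CPM in cells with at least 3 UMIs of Ccn2, a marker of the deepest cortical layer, and at 4.25 and 12.5 CPM in the rest. In CGE-like cells it was at 297 and 375 CPM in cells with at least 3 UMIs of Lamp5, a neurogliaform marker, and at 3.35 and 21.7 CPM in the rest. The Lamp5 cells were 34.5% and 53.7% of the class, and the Ccn2 cells 27.5% and 31.7% of theirs. Cplx3 was thus lower among the Ccn2 cells of the deep-layer-like class. Ccn2 itself went from 829 to 550 CPM in that class, and its 7 summed markers from 2583 to 2192 CPM, with 2 of 7 above 0. Whether the cells with at least 3 Ccn2 UMIs were alike in the 2 libraries was not tested. In CGE-like cells the share of Lamp5 cells and the Cplx3 level within them were both higher with tomatidine. The other deep-layer members called were Stxbp6, Rab3d and Syt14 at 0.68, 0.59 and 0.35 and Syt6 and Vamp3 at −0.47 and −0.34, and none of them held throughout.

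The remaining excitatory cells, a remainder class, had few calls, and there 2 of 64 measured members were higher and 3 lower in the tomatidine library, beside 5.08% and 2.73% of all genes measured there. Syt9 went from 17.1 to 5.72 CPM, a log2 ratio of −1.58 (counting interval −1.83 to −1.34), and Syt6 from 38.2 to 15.8 CPM, a log2 ratio of −1.27 (counting interval −1.42 to −1.12), and both held throughout. Stxbp2, Syt2 and Cplx3 at 0.38, 0.33 and −0.35 did not. Syt15 was a case of few cells. It went from 139 UMIs in all neuron-like cells of control to 9 in tomatidine, a log2 ratio of −3.86 (counting interval −5.02 to −2.90), but 79 of the control UMIs came from 16 of the other excitatory cells and 48 from 6 thalamic-like cells, with up to 27 in 1 cell.

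Vamp1 was the member called higher in glia most often. It was higher in all 4 glia classes and in 8 of the 14 classes, and lower in none. Under the strict cell filter it was higher in 6 classes, 3 of them glia, and lower in 1. With all deposited cells it was also lower in 1 class. The astrocyte, oligodendrocyte and microglia values held throughout, and that in OPC-like cells was 0.44 under the strict cell filter. It went from 124 to 172 CPM, a log2 ratio of 0.47 (counting interval 0.35 to 0.60), in astrocyte-like cells, from 52.3 to 92.1 CPM, a log2 ratio of 0.82 (counting interval 0.70 to 0.93), in oligodendrocyte-like cells, from 45.2 to 94.0 CPM, a log2 ratio of 1.06 (counting interval 0.64 to 1.49), in OPC-like cells and from 63.6 to 107 CPM, a log2 ratio of 0.74 (counting interval 0.46 to 1.03), in microglia-like cells. With cells thinned to 1500 UMIs, 14.6% and 20.8% of astrocyte-like, 6.76% and 11.3% of oligodendrocyte-like and 8.23% and 14.1% of microglia-like cells had a Vamp1 UMI, beside 8.71% and 10.4% of granule-like cells. Unc13c was higher in 8 of the 10 classes in which it had enough UMIs and Syt2 in 7 of 8. Among the named neuron types, Vamp1 and Syt2 were highest in Pvalb-like cells and next in thalamic-like cells. Unc13c was highest in thalamic-like cells (48.7 and 75.0 CPM), beside 33.5 and 79.1 CPM in the other interneurons. Slc17a6, the glutamate transporter gene of thalamic neurons, had log2 ratios of 0.63, 0.82 and 0.27 in oligodendrocyte-like, OPC-like and astrocyte-like cells. In microglia-like cells it was at 0.25 (counting interval −0.13 to 0.64). Prkcd had −0.49, 0.11, −1.04 and −0.26 in oligodendrocyte-like, OPC-like, astrocyte-like and microglia-like cells. In the same order, the sum of the 7 thalamic markers had 0.23, 0.48, −0.31 and −0.14, with 6, 6, 2 and 4 of the 7 above 0. None of the 7 was at 0 in any glia class. Over all glia-like cells Vamp1 was at 41.3% and 45.1% of its neuron level, Syt2 at 24.3% and 27.1%, and the part of neuronal RNA in these differences was not tested.

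**Figure D5:**
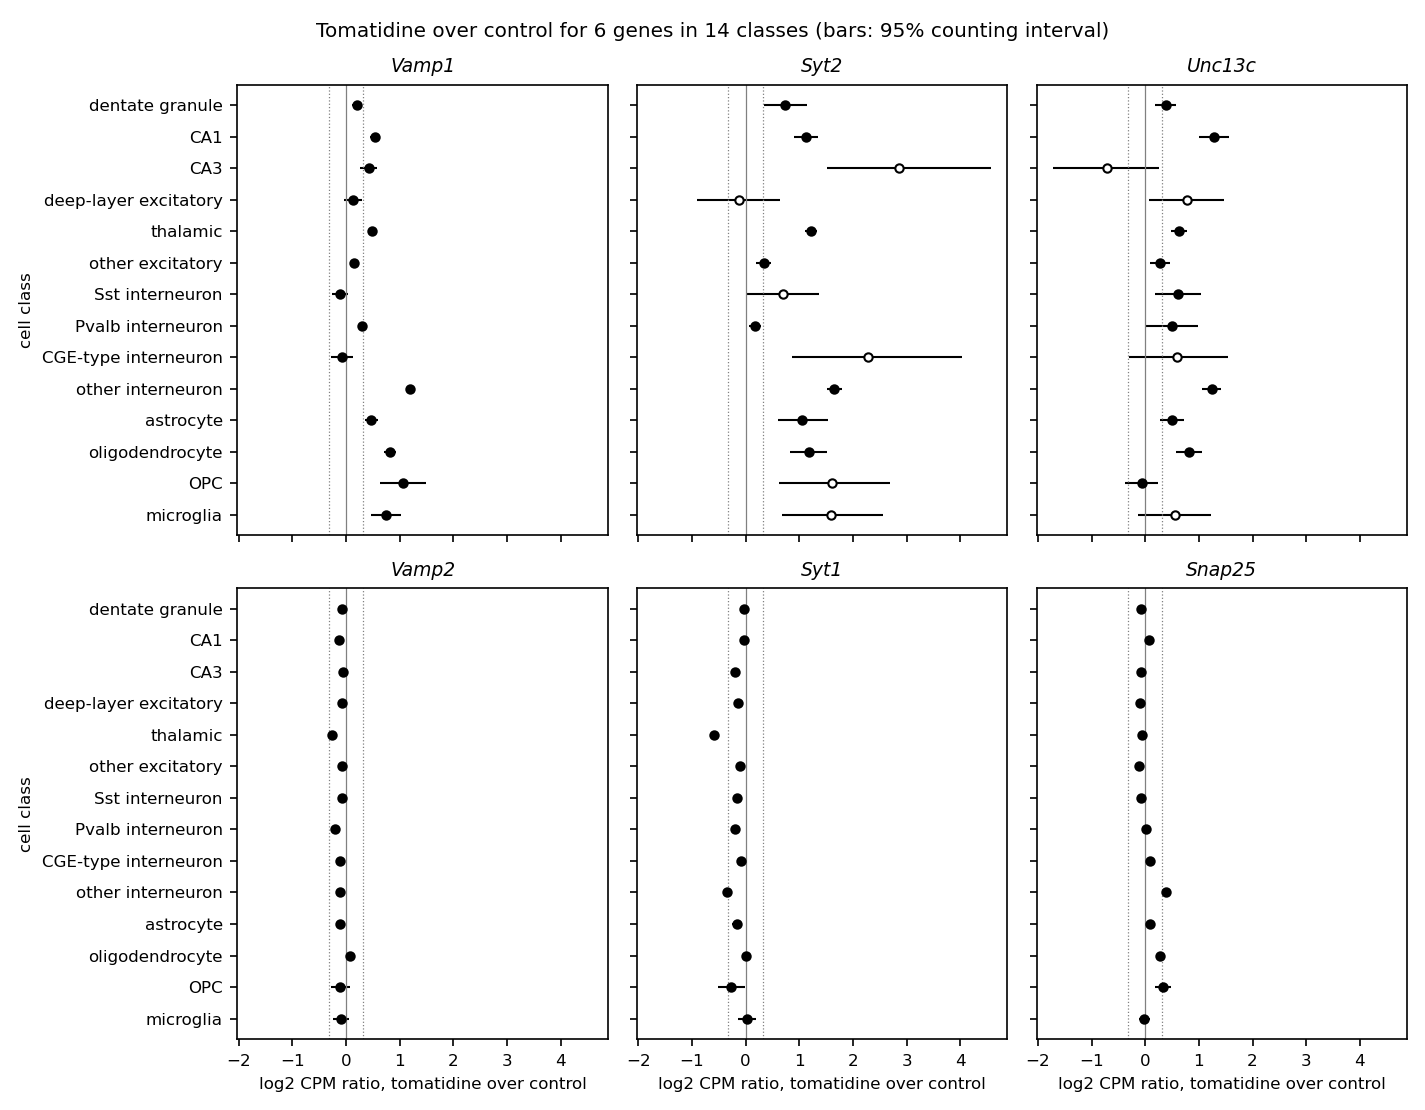
Log2 CPM ratio of tomatidine over control for 6 members in 14 classes, with exact 95% counting intervals. Open points have under 100 UMIs in the class, and dotted lines mark a log2 ratio of 0.32 either way; Vamp1, Syt2 and Unc13c lie to the right in most classes, whereas Vamp2 and Snap25 stay near 0 in most and Syt1 is to the left in thalamic-like cells and other interneurons.

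In glia the other calls were few. In astrocyte-like cells, 5 of 62 measured members were higher and 2 lower in the tomatidine library, beside 4.21% and 4.12% of all genes measured there. Syt13 went from 125 to 91.4 CPM, a log2 ratio of −0.45 (counting interval −0.59 to −0.30), and Unc13a from 70.4 to 56.3 CPM, a log2 ratio of −0.32 (counting interval −0.51 to −0.14). Beside Vamp1, the higher members were Syt2, Unc13c, Stx1a and Syt12 at 1.06, 0.50, 0.35 and 0.33. Of the 7, Syt2, Unc13c, Vamp1 and Syt13 held throughout. In oligodendrocyte-like cells, 6 of 65 measured members were higher and 0 lower in the tomatidine library, beside 5.64% and 2.42% of all genes measured there, with Syt2, Unc13c, Rims4 and Rims3 at 1.17, 0.81, 0.68 and 0.47 beside Vamp1, all 5 of which held throughout. The glial Syt11 was not called, at −0.014 (counting interval −0.035 to 0.0075), and neither was Sv2a, at −0.13 (counting interval −0.17 to −0.083). In OPC-like cells, 7 of 48 measured members were higher and 0 lower in the tomatidine library, beside 4.31% and 3.59% of all genes measured there, among them Stx1a, Stx17 and Rab3a at 0.55, 0.52 and 0.46, of which Stx17 held throughout. The summed pan-neuronal markers had log2 ratios of 0.34 in OPC-like cells and 0.19 in oligodendrocyte-like cells, with 7 of 7 above 0 in each. In astrocyte-like cells they had −0.11, with 2 of 7 above 0, and in microglia-like cells 0.083, with 3 of 7. The 6 summed excitatory markers had −0.22 in OPC-like, −0.067 in oligodendrocyte-like, −0.13 in astrocyte-like and −0.071 in microglia-like cells. The part of neuronal RNA in the member values was not tested. In microglia-like cells, 2 of 52 measured members were higher and 1 lower in the tomatidine library, beside 4.77% and 2.84% of all genes measured there, with Stx8 higher at 0.44 and Rims1 lower at −0.42. Stx8 held throughout and Rims1 did not, and with the looser gate 8 members were higher in microglia-like cells in place of 2.

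Over the 14 classes, 66 of the 72 members had enough UMIs in at least 1 class. Of these, 47 (71.2%) were called in at least 1 class, beside 58.9% of all genes measured, and 19 (28.8%) were called higher in 1 class and lower in another, beside 11.5%. These shares are not matched for the number of classes in which a gene was measured or for its UMIs. Of the 43 members with enough UMIs in all 14 classes, 13 were called in none. A list of 25 genes that work beside the members was set next to them, with SNARE disassembly, active zone, vesicle, priming, endocytosis and calcium channel genes. Over all neuron-like cells 1 of the 25 was higher and none lower, beside the 8.69% and 2.69% of all genes given above. The 1 was Doc2a, a calcium sensor of spontaneous and asynchronous release, which went from 43.2 to 61.7 CPM, a log2 ratio of 0.52 (counting interval 0.47 to 0.56). Within the 14 classes, at most 5 of the list were higher, in the other interneurons (5 of 25, beside 11.9% of all genes), and at most 3 lower, in astrocyte-like cells (3 of 25, beside 4.12%). None was called in granule-like, CA3-like, deep-layer-like and Pvalb-like cells, and in OPC-like cells 4 of 21 measured were higher, beside 4.31%. Syp (synaptophysin) and Nsf, the ATPase that takes used SNARE complexes apart, had log2 ratios of −0.012 and −0.041.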

How the data were processed

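Single cells of 2 pooled hippocampal libraries, 1 for each group, were measured with fixed RNA probes. The deposited files hold whole UMI counts per gene and cell that the authors made against mm10 and filtered to cells. The matrix headers name cellranger 7.1.0 and the submitters' processing notes Cell Ranger 8.0.0. Total deposited counts were 279525565 UMIs in control and 259059908 in tomatidine, of which the kept cells held 206484739 and 200279116.

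The study's Methods state 2 cell filters. By the first, used here, a cell was kept with at least 500 UMIs, over 250 genes, under 20% mitochondrial UMIs and a complexity (log10 genes over log10 UMIs) above 0.8. The 489 control and 387 tomatidine cells that failed held 65814626 and 52025322 UMIs. The second also removes cells with over 6000 genes and has a lower mitochondrial limit, and was run as an alternative at 10%. The 2% of cells with the highest Scrublet score per library (scanpy 1.11.5) were removed, since the tool's own threshold called 0 and 1 cells. Each marker was scaled to UMIs per 10000, divided by its 99th percentile over cells with a UMI and capped at 1. A cell joined the class whose mean marker score was at least 0.1 and 2-fold the next, with at least 3 markers detected for a broad class and 2 for a type. No member is a marker, and 2939 control and 3189 tomatidine cells stayed unassigned. UMIs were summed per class and library and divided by the class total. Cell barcodes that both libraries share (260 among the kept cells) were left in.

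Ratios carry exact conditional binomial 95% intervals, which cover counting error only. With 1 library per group no replicate check exists, and no p-value was computed. A call needed 100 UMIs, a log2 ratio past 0.32 and an interval excluding no difference, and the same was counted over all genes. Named members were the highest of each family, those at least 3-fold in 1 class, up to 5 calls per direction and class, and the 10 highest in glia over neurons. Others named in the text were added after their values were seen. The members, marker lists and partner list were chosen with earlier results of these data known. Neuronal classes rest on rebuilt names. Marker genes Trpc6, Cx3cr1 and Ly6c1 and the partner Bsn are not used here, and a few members and markers are counted but not named. Python 3.11.15 with scipy 1.17.1 and R 4.3.3 with edgeR 4.0.16, for TMM factors alone, were used, and the call rule was tested on simulated data. Gene positions are from GENCODE vM21 and promoter sequences from RefSeq.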

Additional observations from a re-analysis of the deposited data

Results flagged for a closer look

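In 19 members the tomatidine library was called higher in 1 class and lower in another, which is 28.8% of the 66 measured members beside 11.5% of all genes. The largest log2 ratio of each direction is given here, the higher class first. The difference between the classes was not tested, since each class rests on 1 library per group.

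Sv2c (1.86 and −1.30), Syt5 (0.36 and −1.17) and Stx6 (0.39 and −0.45) were higher in thalamic-like cells and lower in the other interneurons. The reverse held for Syt17 (0.98 and −0.68) and Rab3c (0.42 and −0.64). Lower in thalamic-like cells were also Rab3b (0.54 and −0.75) and Rims3 (0.71 and −0.35), higher in CA1-like cells, Sv2b (0.86 and −0.53), higher in Sst-like cells, and Cplx1 (0.35 and −0.47), higher in OPC-like cells. The remaining excitatory cells had the lower value of Syt6 (1.003 and −1.27), higher in thalamic-like cells, and of Syt9 (1.04 and −1.58), higher in the other interneurons. Stxbp2 (0.73 and −0.79) was higher in Sst-like and Syt14 (0.35 and −0.61) in deep-layer-like cells, both lower in the other interneurons. In CGE-like cells Cplx2 (1.01 and −0.57) and Stxbp6 (0.79 and −0.40) were lower, with the higher value in thalamic-like cells and the other interneurons. Cplx3 (1.05 and −0.90) was higher in CGE-like and lower in deep-layer-like cells, and Stx5a (0.32 and −0.33) higher in Sst-like and lower in Pvalb-like cells. Glia held the lower value of Rims1 (0.38 and −0.42), between CGE-like and microglia-like cells, and of Syt13 (0.32 and −0.45), between the other interneurons and astrocyte-like cells.

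In Syt6 and Rab3c both values stayed calls under the 7 other settings run on them, and in the other 17 members at least 1 did not. Under the strict cell filter Cplx3 in deep-layer-like cells was at 0.69, so that both of its classes were higher, Stx6 in thalamic-like cells was at −0.15 and Cplx2 in thalamic-like cells at 0.081. Stxbp6 in CGE-like cells was at 0.14 with all deposited cells, and Cplx1 in OPC-like cells at −0.17 as a mean over cells.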

How the results depend on the processing

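Over the 14 classes 99 calls were higher and 38 lower of 816 measured pairs of a member and a class, 12.1% and 4.66% beside 7.48% and 3.84% over all genes. At 1.5-fold these were 40 and 14, 4.90% and 1.72% beside 2.36% and 1.48%. Over all glia-like cells the 8 higher members became 3 at 1.5-fold and 3 with the control mix of classes, and the 1 lower became 2 with a minimum of 20 UMIs or none. The other counts summed over the 14 classes or over the pooled cells stayed within 1.5 times under the settings run, but those within a class moved more. Of 28 such counts, 21 moved by over 1.5 times or to or from 0 at 1.5-fold, 10 with the stricter gate, 8 under the strict cell filter, 8 as a mean over cells and 3 to 6 under the other settings. Under the strict cell filter the higher members went from 13 to 7 in CA1-like and from 15 to 8 in thalamic-like cells. The log2 ratio of the summed member level stayed within 0.32 of 0 in each class under the settings run, and some values near 0 changed sign. Of 116 calls recomputed 50 held under every alternative. Under the strict cell filter, which follows the second one the study states, 66 stayed calls and 11 turned: Syt2 −0.54 and Snap29 0.25 in CA1-like, Rab3d −0.071 and Cplx3 0.69 in deep-layer-like, Cplx3 0.076 in other excitatory, Syt6 −0.69, Cplx2 −0.081, Sv2b −0.33 and Cplx3 1.57 in Pvalb-like, Syt6 0.58 in CGE-like and Stx6 −0.15 in thalamic-like cells. Also turned were Cplx3 in other excitatory cells with the looser gate (0.12) and in Pvalb-like cells with the stricter gate (0.021), Sv2b in Pvalb-like (−0.30) and Stxbp6 in CGE-like cells (0.14) with all deposited cells, and Syt17 in CGE-like (−0.019), Cplx1 in OPC-like (−0.17) and Stx6 in thalamic-like cells (−0.0038) as a mean over cells. The cause was not tested. Without thinning, the share of oligodendrocyte-like cells with a UMI minus that of granule-like cells was −1.88 and −1.54 percentage points for Syt11, −11.3 and −14.0 for Sv2a and, in control, 3.65 for Vamp3, and for Stx2 in microglia-like cells it was −5.64 and −10.8. Thinned, these were 29.3 and 30.9, 12.7 and 11.4, 11.7, and 6.403 and 7.14. The control mix and the splits of a class by 1 marker were chosen after seeing the data. No paired analysis was possible because each group is 1 pooled library, and for the same reason no replicate could be left out. OPC-like cells had the fewest UMIs of the 14 classes, 1571697 and 1500505, and the fewest measured members (48), and intervals cover counting error, not the spread between mice.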

Other observations

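Some members had values in cells outside the comparisons. Among unassigned cells, Syt15 had 219 UMIs in 39 control cells and 92 in 31 tomatidine cells. Syt8 had 4 UMIs in 4 of 739 microglia-like cells of control and 9 in 8 of 654 of tomatidine, against 1 and none in all neuron-like cells. In oligodendrocyte-like cells 3 of the 25 release partners were higher in the tomatidine library, beside 5.64% of all genes measured there, the calcium sensor Doc2a and the presynaptic calcium channel genes Cacna1a and Cacna1b, and in the other interneurons they were Nsf, Napb, Doc2a, Doc2b and Sh3gl2, with Erc2 lower.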
